A study of Danio rerio with 170 samples.

Results

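The 200 genes described here rose and fell together from library to library among whole zebrafish embryos that had received the same treatment. They were chosen with an index of 7 genes: mxd1, zgc:158689, cacna1da, osbpl2a, srgap3, tfe3a and the gene with identifier 100332468, which the RefSeq gene table names pde2a. In the 70 libraries of the study called 16PAH, each gene's mean over its condition was subtracted, the deviations of the 7 genes were averaged, and the 200 of 21847 other genes with the highest Pearson r with that average were taken as members. They were chosen by these measured values, so values from the same deviations are a description only. Of the 21854 genes in the table, 200 were thus members and 7 formed the index. The paper lists these 7 among its hubs, the genes with the most links in its co-expression network. It places them in a module that it associates with flame retardant exposure. That network was inferred from the treatments of all studies, the flame retardants included. Every value was analysed as log2(normalized value + 1), so the index of a library is the mean of the 7 genes on that scale, and a difference of 1 is a 2-fold difference.

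RNA was taken at 48 hours post fertilization (hpf) from embryos exposed to 33 treatments in 5 studies, and each replicate of the newly made studies was a pool of embryos. In the FRC study, 10 flame retardant chemicals were set against 4 control libraries at 0.64% DMSO: BDE-47, TCEP and TCPP at 85 µM, TBPH at 72 µM, TiBP at 158 µM, IPP at 19.8 µM, TPP at 8 µM, TBBPA and TBBPA-DBPE at 4 µM and TDBPP at 3 µM. In the 16PAH study, 1,5-DMN, 2-MN, 9-MA, Acenaphthene, Anthracene, BbF, Carbazole, Fluoranthene and Phenanthrene were given at 50 µM, 4h-CPdefP at 16.2 µM, BjF at 14.9 µM, Retene at 12.2 µM, DBahP at 10 µM, DBaiP at 5 µM and 3-NF and BkF at 1.9 µM, with the control groups DMSO_A (3 libraries) and DMSO_B (4 libraries) at 1% DMSO. The PE50_AK study held B[a]P at 1 and 10 µM and DBalP at 10 µM, and the PE50_BG study held 7,12-B[a]AQ and BEZO at 10 µM and 9,10-PQ at 1.2 µM, each with 3 control libraries at 1% DMSO. The TCDD study compared 4 libraries exposed to TCDD at 1 ng/mL with 4 controls at 0.1% DMSO. No group carried a transgene or a deletion according to the labels. No label ties replicates to separate spawnings, so a p-value measures the spread between these samples.

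At 48 hpf the embryo is hatching and most organs, the brain and the body muscle among them, are forming connections and becoming active. Several of the index genes encode proteins of excitable or migrating cells: cacna1da the pore of a voltage-gated calcium channel that hair cells use, srgap3 a GTPase-activating protein that shapes the cytoskeleton downstream of Slit and Robo, and pde2a a phosphodiesterase that cGMP switches on. The proteins of mxd1 and tfe3a are helix-loop-helix transcription factors, a partner of MAX and a member of the MiT/TFE family that controls lysosomal genes, and osbpl2a encodes a lipid transfer protein.

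After entries that shared a lane and an index were pooled, there were 144 libraries in 39 groups, with 6795594 to 28566824 reads on the 21854 genes (median 18023617). The members drew between 0.219% and 1.03% of the reads of a 16PAH library. A member was covered by few reads only rarely: 1 of the 200 had 0 reads in any library. In whole embryos, fewer cells of a type and less RNA per cell cannot be told apart.

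The index spanned more than 10-fold among libraries and stood lowest in the FRC controls. The 4 FRC control libraries had index values of 5.50, 6.56, 6.04 and 6.28 for replicates 1 to 4. The 39 exposed FRC libraries ranged from 6.30 to 9.34 with a median of 8.35, and 4 of them were below 7: TBBPA replicates 3 (6.30) and 4 (6.89), TCEP replicate 2 (6.76) and TPP replicate 1 (6.77). Controls and exposed libraries thus overlapped only at the low end of the exposed range. In the TCDD study the controls read 6.88, 8.36, 7.23 and 5.90 and the exposed libraries 9.18, 6.24, 8.19 and 8.37, so both groups ran over nearly the whole range. The 7 control libraries of 16PAH lay between 8.19 and 8.58, those of PE50_AK between 8.68 and 9.01, and those of PE50_BG between 9.02 and 9.04, so the controls of these studies were alike among themselves and high.

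**Figure D1:**
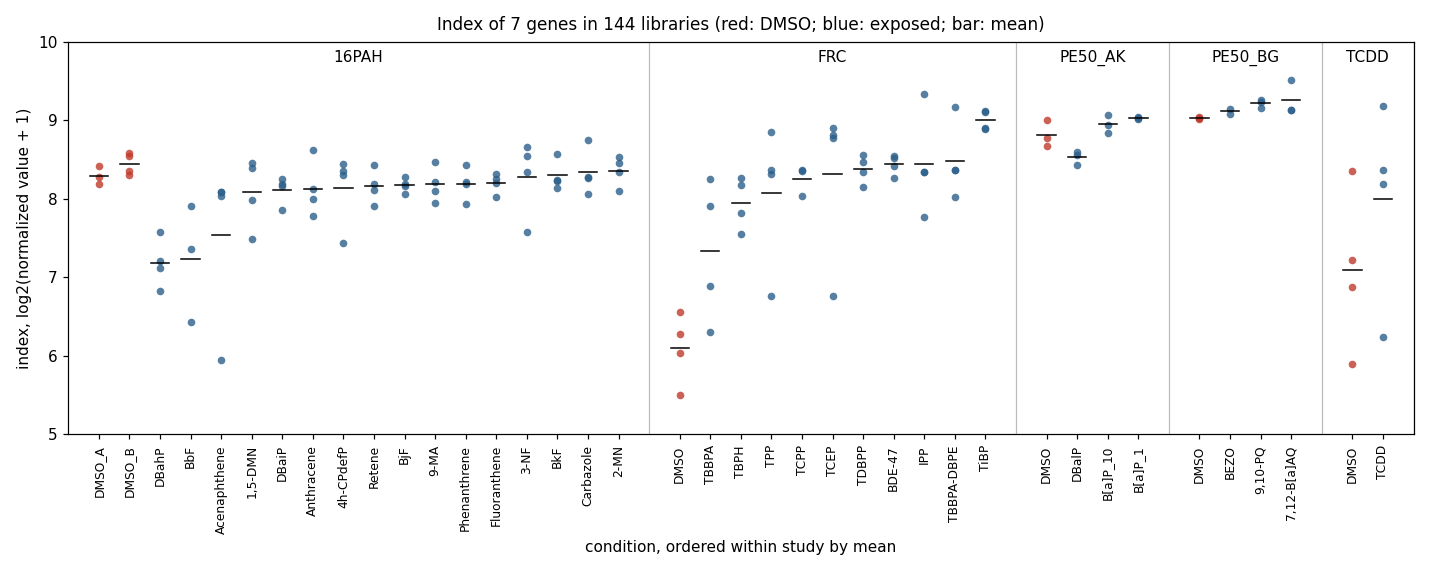
Index (mean log2(normalized value + 1) of the 7 index genes) in each of 144 libraries, 1 point per library, by study and condition; red points are DMSO controls, blue points exposed libraries and bars group means. The 4 FRC controls sit between 5.50 and 6.56, whereas the controls of 16PAH, PE50_AK and PE50_BG are all at 8.19 or above.

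The 7 index genes differed in how far they moved. In the 4 Acenaphthene replicates of 16PAH, the normalized values of tfe3a were 105, 134, 130 and 14.1. The values of srgap3 in the same libraries were 433, 403, 411 and 116. For mxd1 they were 489, 578, 560 and 173, so that replicate 4 was the lowest for all 3 genes. Across the FRC controls tfe3a read 12.2, 40.7, 25.4 and 16.5, against 49.6 to 1092 (median 221) in the exposed libraries, and its groups did not overlap. For srgap3 the controls read 51.3, 114, 86.5 and 118 and the exposed libraries 88.1 to 1098 (median 445), with 2 of the 4 controls above the lowest exposed library.

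Within the conditions of 16PAH, where the members were chosen, the r of the members ran from 0.845 to 0.966 (median 0.879), against a median of -0.01 over all 21847 genes; these values made the choice and carry no test. The index deviation from the condition mean ranged from -1.59 in Acenaphthene replicate 4 to 0.68 in BbF replicate 1. The next lowest libraries were BbF replicate 2 (-0.80), 3-NF replicate 4 (-0.70), 4h-CPdefP replicate 1 (-0.70) and 1,5-DMN replicate 4 (-0.59). The 5 lie in lanes 2, 6, 2, 3 and 5, and every lane held deviations of both signs. The highest r belonged to gna11b (0.966), a G protein alpha subunit of the Gq family, plxnb3 (0.962), a semaphorin receptor, and lifra (0.954), the receptor for leukaemia inhibitory factor. Next were mmp24, a membrane-bound metalloproteinase, nav1b, a neuron navigator, gabbr1b, a subunit of the GABA-B receptor, ece2b, an endothelin-converting enzyme, cspg4, a chondroitin sulfate proteoglycan, and ppp1r9a, an actin-binding protein of synapses. LOC103908739, igf2r (the mannose 6-phosphate receptor), LOC100004582, slc6a8 (the creatine transporter), fat3a (an atypical cadherin) and xirp2b (an actin-binding protein of muscle) completed the first 15. Just inside the limit were ryr3, kremen1 and igf1rb, and just outside it slc39a14, sec31b and tmem63bb, all at an r that rounds to 0.84 or 0.85. Leaving out the 2 libraries farthest from the median index kept 139 of the 200 members, and leaving out lane 2 kept 144.

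The rule that picked the members did not use the libraries of the other studies. The index genes, however, are hubs of the paper's network, which was inferred from treatments of all these studies. Tests in the other studies are therefore not independent of the choice of the index. The first question was whether the members also followed the index within the conditions of the other studies. In the 43 FRC libraries they did: all 200 members had a positive slope on the index that passed an adjusted p of 0.05 (limma, condition as a factor, Benjamini-Hochberg over all genes), whereas 16.2% of all genes tested had one. The median slope of the members was 0.86 log2 units per unit of index (0.18 to 1.60), and that of all genes was -0.02. A slope of 1 means that a gene changed by as many fold as the index. When each FRC library was left out in turn, 198 to 200 members passed, and without the 4 control libraries, a setting chosen after seeing the data, it was 200.

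In the 8 libraries of the TCDD study, 198 members had a positive slope that passed the same limma test, against 6.15% of all genes, and the slope was above 0 for all 200. The median slope was 0.67 (0.13 to 1.70), with -0.03 for all genes. The 2 members that did not pass were plecb, which encodes the cytoskeletal linker plectin (slope 0.13 ± 0.05 SE, adjusted p = 0.143), and mgat4c, a glycosyltransferase gene (0.43 ± 0.12, adjusted p = 0.0505). Between 179 and 197 members passed when 1 of the 8 libraries was left out.

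The PE50 studies spanned a narrower range of the index. In PE50_BG the deviations ran from -0.13 to 0.26, and 100 members had a positive slope past the limma threshold, against 4.80% of all genes. The median slope was 0.90, against 0.03 for all genes, and 188 of the 200 slopes were above 0. This count rested on 1 library, 7,12-B[a]AQ replicate 3: it was 0 without that library, 57 without replicate 1 and 65 without replicate 2 of the same treatment, and 0 with sequencing lane as a factor. The normalized values of zfhx4, a zinc finger homeobox gene with the largest slope there, were 1625, 1636 and 3449 in the 3 replicates of 7,12-B[a]AQ. In PE50_AK the deviations ran from -0.14 to 0.19. The median slope was 0.82, against 0.06 for all genes, and 175 slopes were above 0. There 48 members passed with a positive slope, against 5.06% of all genes. That count fell to 0 without control replicate 1 or 3, to 22 without B[a]P replicate 1 at 10 µM, to 26, 18 and 25 without B[a]P replicates 1, 2 and 3 at 1 µM, and to 0 after upper-quartile rescaling. Negative slopes past the limma threshold were found for 0 members in each of the 4 studies, where they made up 12.2% of all genes in FRC, 0.815% in TCDD, 1.74% in PE50_BG and 4.33% in PE50_AK. With a positive slope, 26 members passed in 4 studies, 94 in 3 and 80 in 2. Nearly all members passed in FRC and TCDD, so this split follows the PE50 counts, which fell to 0 as given above. The matching shares of all genes were not counted, so the split is no result about the members.

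**Figure D2:**
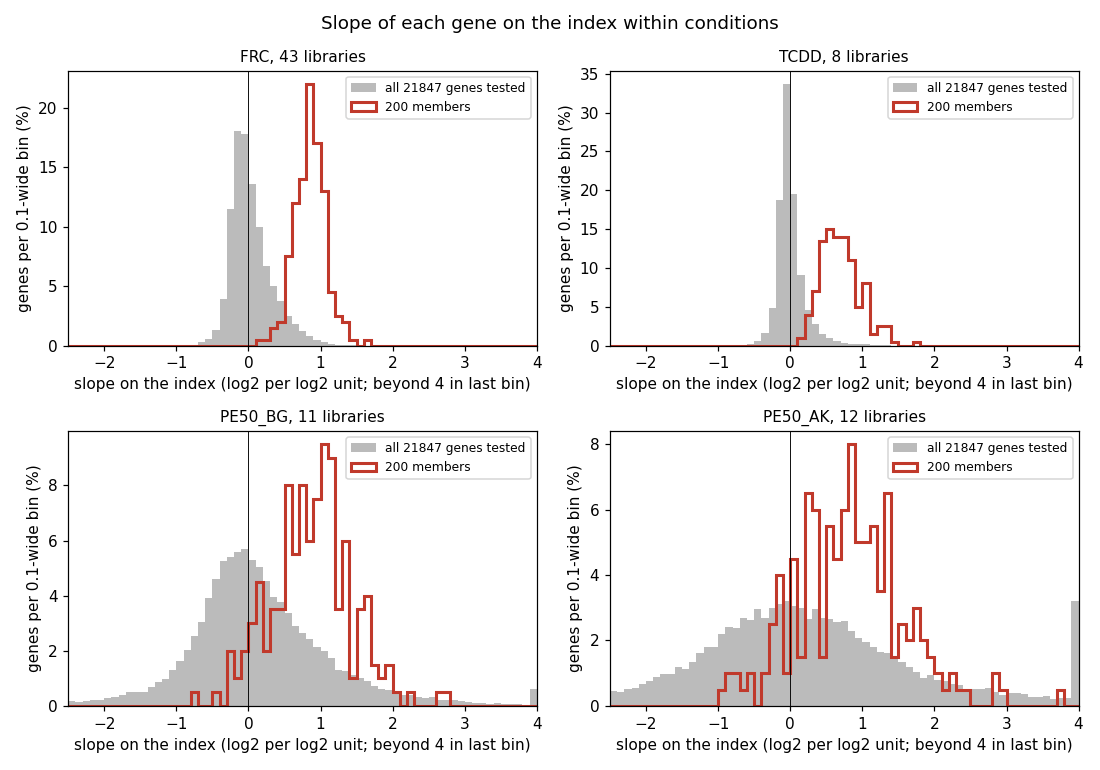
Slope of each gene on the index within conditions in 4 studies (x axis, log2 units of the gene per log2 unit of the index; y axis, percent of genes per bin). Grey bars are all 21847 genes tested and red outlines the 200 members, whose median slopes are 0.86 in FRC, 0.67 in TCDD, 0.90 in PE50_BG and 0.82 in PE50_AK.

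Members differed in how steeply they followed the index. In FRC the largest slopes were those of GeneID 110440170 (1.60 ± 0.21 SE), then GeneID 100332902, slc12a5b (1.40 ± 0.15), slc6a8 (1.37 ± 0.10) and cacnb4a (1.33 ± 0.09). The gene slc12a5b encodes a potassium chloride cotransporter of neurons and cacnb4a a beta subunit of calcium channels. The smallest were those of plecb (0.18 ± 0.05), ryr3 (0.28 ± 0.06), an intracellular calcium release channel, and tenm3 (0.34 ± 0.04), a teneurin that guides synaptic partners. Each of these 8 slopes passed the limma test, with adjusted p values from 2e-14 for cacnb4a to 0.00833 for plecb. In TCDD large slopes were those of zfhx4 (1.70 ± 0.16), gipc1 (1.47 ± 0.08), GeneID 100332902 (1.33 ± 0.11) and znf821 (1.32 ± 0.14), and the smallest after plecb were akap13 (0.15 ± 0.04) and cacna1aa (0.20 ± 0.04). In PE50_AK the largest were si:dkeyp-77h1.4, ctif, rps6ka5, zgc:158659 and spred2b at 3.71 to 2.46, and the smallest, znf507 (-0.93 ± 0.60), atp8b5a (-0.85 ± 0.49) and plpp2a (-0.83 ± 0.61), did not pass. In PE50_BG zfhx4 was followed by GeneID 556850, xylt1, zbtb16b and GeneID 101884666, and the smallest were lmln (-0.73 ± 0.42), slc19a2 (-0.43 ± 0.57) and tbc1d9b (-0.29 ± 0.43), none of which passed.

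The gene at the head of the list, gna11b, had normalized values of 55.1, 187, 91.5 and 106 in the FRC controls and 136 to 934 (median 476) in the 39 exposed libraries. Only control replicate 2 reached into the exposed range. In the TCDD study gna11b read 203, 534, 233 and 108 in controls and 891, 95.4, 353 and 373 in exposed libraries. The order of those 8 libraries was close to that of the index, with the highest value of both in TCDD replicate 1. The lowest gna11b value was in TCDD replicate 2 (index 6.24), whereas the lowest index was in DMSO replicate 4 (5.90). The slope of gna11b was 1.11 ± 0.07 SE in FRC (limma, adjusted p = 1.11e-15) and 1.00 ± 0.06 in TCDD (adjusted p = 3.35e-07).

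For lifra the FRC controls read 23.7, 51.4, 26.4 and 66.1 and the exposed libraries 57.8 to 726 (median 293). The slope of lifra was 1.32 ± 0.09 in FRC (adjusted p = 3.27e-14). A second cytokine receptor, il6st, which encodes the shared subunit that pairs with the receptor for leukaemia inhibitory factor and was picked after its values were seen, read 40.6, 60.8, 58.0 and 41.3 in the FRC controls. The exposed range of il6st was 49.9 to 666 (median 186), and its slope was 0.73 ± 0.08 (adjusted p = 2.14e-09). For slc6a8 the controls read 65.8, 143, 65.1 and 161 and the exposed libraries 56.9 to 1705 (median 591), so that all 4 controls lay inside the exposed range. At the other end, plecb read 2036, 2685, 2568 and 2509 in controls and 2375 to 6924 (median 3775) when exposed, a spread of under 4-fold over 43 libraries.

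**Figure D3:**
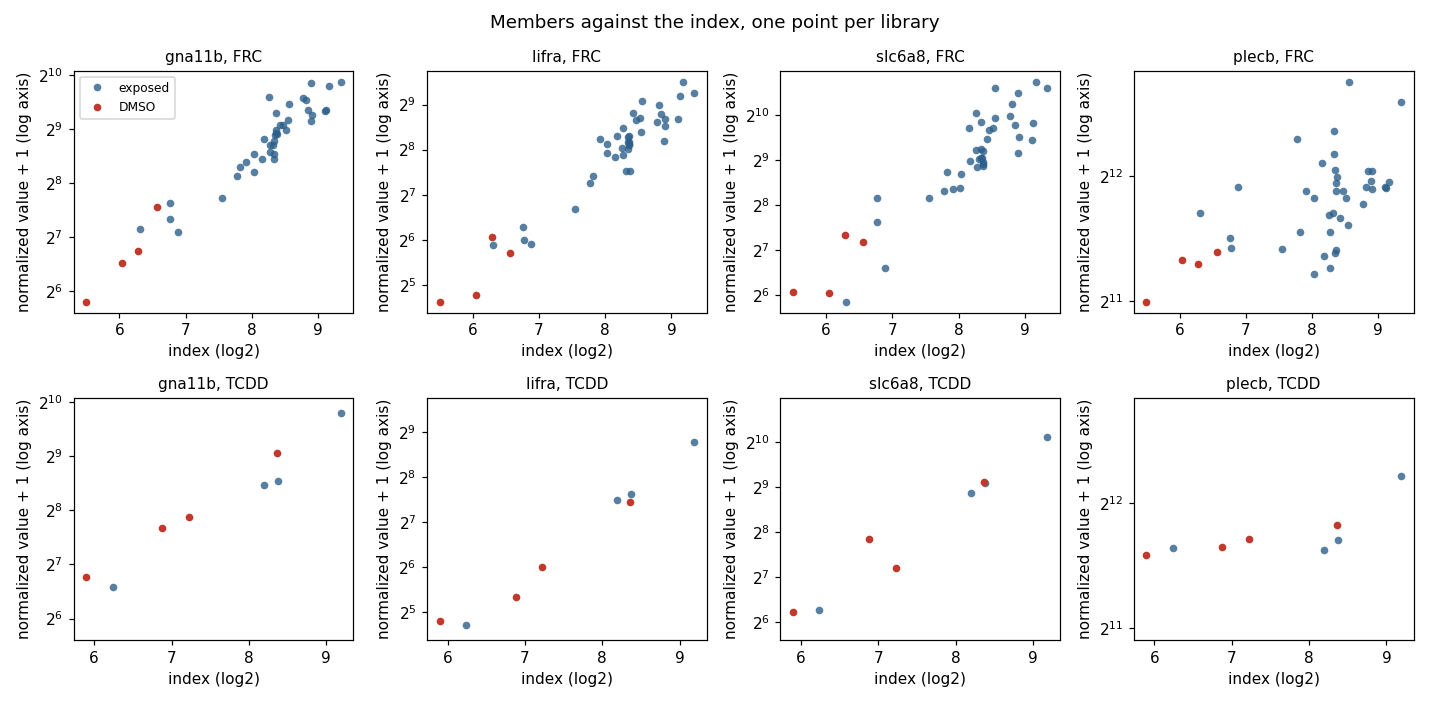
Normalized value + 1 (y axis, log scale) of gna11b, lifra, slc6a8 and plecb against the index (x axis, log2), 1 point per library; red points are DMSO controls and blue points exposed libraries. The first 3 genes rise along the index in FRC and TCDD, with slopes of 1.11, 1.32 and 1.37 in FRC, and plecb with a slope of 0.18.

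Ion channels were among the members. The counts of slopes in each gene list stand against 16.2% positive and 12.2% negative slopes of all genes in FRC. Slopes also went with gene span, as given below. When all genes were divided into 5 groups by span, 42.7% of the longest group and 1.96% of the shortest had a positive slope. No list, here or below, was compared with genes of like span, so its shares cannot be read apart from span. Counts of members, here and below, stand against 200 of 21847 genes. A list of this length with few or no members is therefore near the share of all genes. Of 45 calcium channel genes, 3 were members, and in FRC 22 of the 45 (48.9%) had a positive and 1 a negative slope past the limma threshold. The members were cacna1aa and cacna1ab, pore subunits of the channel type that triggers transmitter release, and cacnb4a. The values of cacna1ab in the FRC controls were 93.4, 123, 104 and 134, and in the exposed libraries 94.6 to 854 (median 302). For cacna1aa, a close paralog, the controls read 1231, 1677, 1221 and 1393 and the exposed libraries 1008 to 3547 (median 1962), which overlap. Its slope was 0.51 ± 0.05, beside 0.99 ± 0.11 for cacna1ab. Reads from near-identical stretches of such paralogs may not be assigned to one gene with certainty, and how the counting treated them was not checked.

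Of 116 potassium channel genes 3 were members (kcnq2b, kcnh7 and kcnab2a), with 53 positive (45.7%) and 2 negative slopes in the list. Of 14 sodium channel genes 2 were members (scn1lab and scn4ba), with 9 positive slopes (64.3%) and 0 negative. The GABA receptor list, added after the members were seen, held 25 genes, with gabrb4 and gabbr1b among the members, and 10 had a positive and 0 a negative slope. GABA is the main inhibitory transmitter of the brain. The values of gabbr1b were 77.3, 144, 105 and 137 in FRC controls and 106 to 844 (median 408) in exposed libraries, so 2 controls lay above the lowest exposed library.

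Genes that steer axons were next. Of 93 axon guidance genes 5 were members: the semaphorin receptors plxna2 and plxnb3, the ephrin receptors ephb3b and epha4b, and the netrin receptor unc5b. In FRC 49 of the 93 (52.7%) had a positive and 3 a negative slope, with a median of 0.24. For plxnb3 the FRC controls read 169, 282, 170 and 235 and the exposed libraries 231 to 918 (median 567), and its slope was 0.77 ± 0.05 (adjusted p = 4.38e-15). For plxna2 the controls read 2504, 2982, 2624 and 2717 and the exposed libraries 1711 to 4833 (median 3503), so the controls lay within the exposed range, and the slope was 0.38 ± 0.04. The ligand gene slit1a was the 1 member of 11 Slit, Robo and srGAP genes, with a slope of 0.50 ± 0.07. In the same family srgap1a and srgap2 had slopes of 0.56 ± 0.05 and 0.42 ± 0.11 that passed, srgap1b had -0.20 ± 0.06, which also passed, and the receptors robo1 to robo4 had slopes from -0.08 to 0.20 that did not pass. Among 101 synapse genes nlgn4xb, a neuroligin, was the only member, with 44 positive (43.6%) and 3 negative slopes in the list.

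The families of the index genes did not move as wholes. None of the 5 MiT/TFE genes other than tfe3a was a member. In FRC mitfb (0.66 ± 0.14), tfe3b (0.66 ± 0.15) and tfeb (0.52 ± 0.10) had positive slopes that passed, and mitfa (-0.24 ± 0.09), the regulator of pigment cells, and tfec (-0.26 ± 0.08) had negative slopes that passed. None of the 29 lysosome genes was a member, and 2 had a positive and 9 a negative slope. Of 16 genes of the MYC, MAX and MXD network 0 were members, 3 had a positive and 5 a negative slope, and myca, mycn, mych, mycla and max were the 5. Of 11 oxysterol-binding protein genes osbpl6 was a member (0.99 ± 0.08), and 5 had a positive and 0 a negative slope. There were 4 members among 198 zinc finger genes (znf618, znf507, znf821 and zbtb16b), with 43 positive (21.7%) and 13 negative (6.57%) slopes. Over all genes 16.2% were positive and 12.2% negative.

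A list of 30 circadian clock genes was added after 2 of them had been seen among the members. Those were clocka, the activator of the clock, with a slope of 0.74 ± 0.08 in FRC (adjusted p = 8.69e-10), and per3, one of its repressors, with 0.77 ± 0.07 (adjusted p = 2.64e-11). In the list 6 slopes were positive and 5 negative past the threshold (16.7%), with a median of -0.03, near the values of all genes. Also positive were clockb (0.57 ± 0.11), bmal1b (0.31 ± 0.11), per1a (0.53 ± 0.17) and rorcb (1.04 ± 0.09), and nr1d1 (-0.63 ± 0.21), cry1a, cry4, tefa and ciarta were negative. Further lists added at the same stage held 60 metalloproteinase genes with 4 members (mmp15b, mmp24, adam22 and adamts7) and 413 solute carriers with 9, among them the mitochondrial iron importer slc25a37 and the sodium calcium exchangers slc8a3 and slc8a4a.

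Some groups had no member and no positive slope past the threshold. Of 79 cytosolic ribosomal protein genes 0 were members, 1 had a negative and 0 a positive slope past the threshold in FRC, and the median slope was -0.16. For 96 genes of oxidative phosphorylation it was 12 negative and 0 positive with a median of -0.16, for 13 genes of the mitochondrial genome 5 negative and 0 positive, and for 39 splicing genes 11 negative and 0 positive. Over all genes 12.2% of slopes were negative and the median was -0.02, so the share of negative calls was below that of all genes for the ribosomal protein genes, close to it for oxidative phosphorylation and above it for splicing (28.2%). In 16PAH, however, the median r of the ribosomal protein genes was -0.51. In FRC, TBBPA replicate 2 combined the highest index deviation (0.92) with 14.1% of its reads on these genes. The part of that library in their FRC slopes was not tested.

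The second question was how the members stood in exposed against control embryos. For FRC the answer is not independent of the index. Its genes lie in a module that the paper associates with flame retardant exposure, partly from these same libraries. In FRC, 128 of the 200 members rose in at least 5 of the 10 treatments (limma against the 4 controls, adjusted p under 0.05 within each treatment over all genes), where 2.54% of all genes did. No member was lower in any treatment at that threshold, and 0 were lower at an unadjusted p under 0.05 in 5 or more, where 1.37% of all genes were lower in 5 or more at the threshold. The median over members of their median log2 difference was 1.36, against 0.00 for all genes. Counting differences of any size, 190 members were higher than control in each of the 10 treatments. The matching share of all genes was not counted, so the 190 is no result about the members. The 10 treatments share their 4 control libraries, the group with the lowest mean index of the study, so these are 10 views of 1 control group. The control values of all 200 members lay below the median of the exposed libraries, as they did for 20.4% of all genes. For 3 members, igf2r, slc25a37 and znf821, all 4 controls lay below all 39 exposed libraries, where 0.0458% of all genes were so placed.

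The number of members that rose differed by treatment. For TiBP 187 rose with a background of 10.9% of all genes and a median difference of 1.66. For TBBPA-DBPE it was 169 (background 6.72%), for BDE-47 152 (2.12%, median 1.59), for TCEP 141 (4.76%, 1.41), for TDBPP 141 (13.7%, 1.35) and for IPP 129 (8.51%, 1.21). For TPP 64 rose (1.75%, 1.17), for TCPP 40 (0.421%, 1.39), for TBBPA 19 (3.53%, 0.61) and for TBPH 5 (0.0686%, 1.14). The median of TBBPA-DBPE lay between those of TCEP and BDE-47. The shares of all genes that were lower, where no member was, were 8.00% for TiBP, 5.10% for TBBPA-DBPE, 0.366% for BDE-47, 4.61% for TCEP, 11.8% for TDBPP, 5.97% for IPP, 1.61% for TPP, 0.0366% for TCPP, 4.65% for TBBPA and 0.00% for TBPH. The median of TCPP was larger than those of TDBPP and IPP, which had more calls. TBBPA, with the lowest median, also had the lowest mean index of the exposed groups (7.34 ± 0.90 SD, n = 4). The count over at least 5 treatments was 66 without control replicate 1, 72 without replicate 3 of every treatment and 35 without replicate 4 of every treatment.

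**Figure D4:**
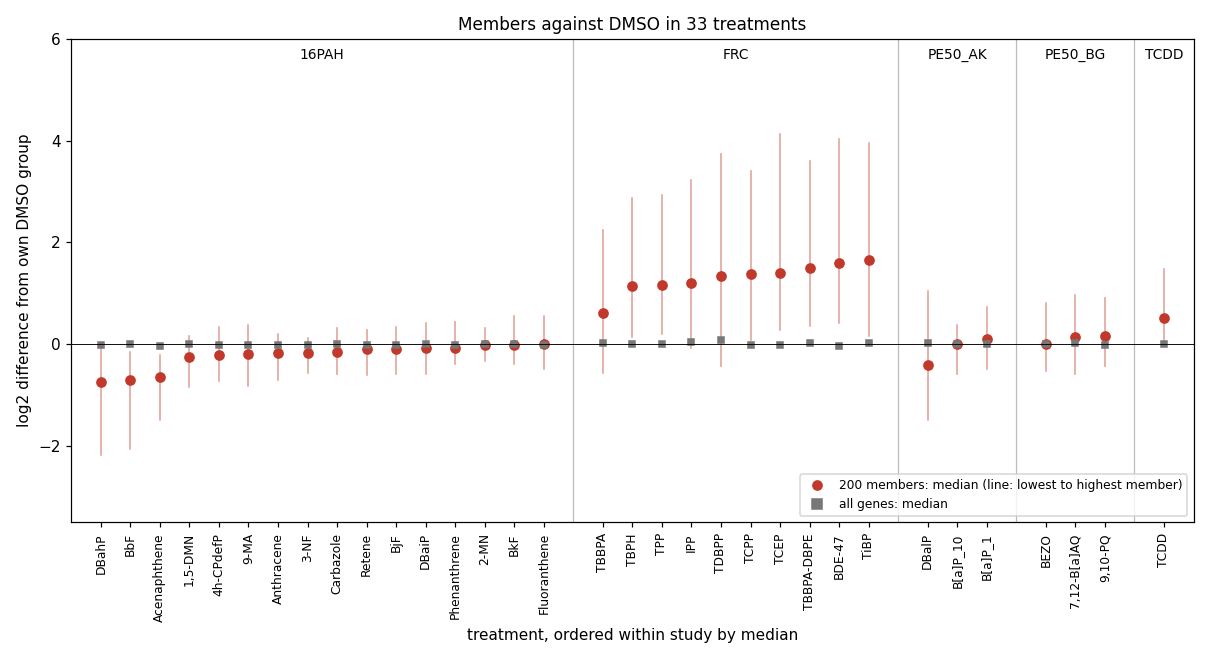
Log2 difference from the treatment's own DMSO group (y axis) for 33 treatments; red points are the medians of the 200 members with lines from the lowest to the highest member, and grey squares the medians of all 21854 genes. The FRC medians lie between 0.61 and 1.66, those of DBahP, BbF and Acenaphthene between -0.74 and -0.63, and DBalP is at -0.41.

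The members with the largest median difference over the FRC treatments were GeneID 110440170 (3.43), znf821 (3.28), GeneID 100332902 (2.90), lifra (2.89), trhra (2.73), slc25a37 (2.67), zfhx4 (2.62), slc6a8 (2.61), hmbox1b (2.60) and bin1a (2.56). For znf821, a zinc finger gene, the controls read 26.8, 23.4, 27.5 and 37.6 and the exposed libraries 46.5 to 690 (median 292). It rose in 10 of 10 treatments, in TiBP by 3.75 ± 0.50 on the log2 scale (limma, adjusted p = 7.96e-07). For slc25a37 the controls read 8.42, 27.4, 29.5 and 22.0 and the exposed libraries 32.1 to 357 (median 139). For igf2r the controls were nearly equal at 212, 219, 215 and 206, and the exposed libraries read 226 to 1223 (median 565). GeneID 110440170 was thinly covered, at 6.12, 8.02, 0 and 10.1 in the controls, so its difference depends on the pseudocount. The receptor gene trhra, for thyrotropin-releasing hormone, read 6.89, 39.4, 10.2 and 43.1 in controls and 19.7 to 364 (median 138) in exposed libraries, with 2 controls inside the exposed range. At the low end plxna2 (0.34) rose in 2 and tenm3 (0.35) in 1 of 10 treatments, and the glial GABA transporter gene slc6a11b passed in 0 of 10.

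With the index as a covariate in the FRC fit, 0 members rose in at least 5 treatments and 35 fell, where 0.677% of all genes rose and 1.94% fell. The medians of the members then lay between -0.77 for TiBP and -0.37 for BDE-47. Over the 10 treatments the calls among members went from 1047, all higher, to 6 higher and 420 lower, and the calls among all genes from 20686 to 14854. The index itself was higher in every FRC treatment by 1.24 to 2.91, more than the medians of the members without the covariate (0.61 to 1.66). The lower calls are thus relative to an index that itself rose further. Index and exposure can be told apart only through the libraries that overlap on the index. Whether the exposures or the library to library variation set the level of the controls was not tested.

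In the TCDD study the members had a median difference of 0.51, against 0.00 for all genes, with 198 of 200 above 0. By limma 0 of the 200 passed, where 0.741% of all genes were higher and 0.805% lower. At an unadjusted p under 0.05, 6 members were higher and 0 lower, against 7.34% and 9.71% of all genes. For lifra the controls read 39.6, 173, 63.5 and 26.8 and the TCDD libraries 434, 25.1, 178 and 196, groups that overlap widely, with a difference of 1.24 ± 0.75 SE (adjusted p = 0.429). Without TCDD replicate 2, the library with the lowest index among those exposed, 6 members passed. The share of all genes that passed in that fit was not counted, so the 6 are no result about the members.

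In PE50_AK, 109 members were lower and 10 higher in embryos exposed to DBalP, against 16.2% and 15.5% of all genes, and the median difference of the members was -0.41. The 3 DBalP libraries were sequenced in lane 4 and the 3 controls in lane 3, so exposure and lane cannot be told apart in this contrast. The libraries of B[a]P at 1 µM were also sequenced in lane 4, and the part of lane in either contrast was not tested. The index values of DBalP (8.43 to 8.60) lay below those of the controls (8.68 to 9.01). The largest fall was that of zgc:158659, at 642, 687 and 1600 in the controls and 282, 366 and 313 in the exposed libraries (-1.48 ± 0.26 SE, limma adjusted p = 0.000683), although control replicate 3 stood far above the other 2. For pcbp3, an RNA-binding protein gene, the values were 977, 1195 and 1537 against 468, 476 and 403 (-1.44 ± 0.13, adjusted p = 4.36e-06). Of the channel genes cacna1ab fell by 0.59 on the log2 scale (adjusted p = 0.000163), scn1lab by 0.75 (1.93e-05) and kcnh7 by 0.77 (8.82e-05). The largest rise was that of il6st, at 568, 587 and 621 in controls and 1061, 1318 and 1330 in exposed libraries (1.05 ± 0.11, adjusted p = 9.51e-06), groups that do not overlap. With B[a]P at 1 µM the 1 member that changed was higher, where 0.293% of all genes were higher and 0.0320% lower. At an unadjusted limma p under 0.05, 44 members were higher and 7 lower at that dose. The matching shares of all genes were not counted. At 10 µM 0 passed by limma, where 1.01% of all genes were higher and 0.407% lower, with 11 higher and 12 lower at an unadjusted p under 0.05, where 7.71% and 7.13% of all genes were. Over the 3 treatments 119 members changed in at least 1, against 32.2% of all genes, and without replicate 3 of each treatment it was 79.

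In PE50_BG, 35 members were higher and 3 lower with 9,10-PQ, against 3.15% and 3.91% of all genes, with a median difference of 0.17. All 3 controls were in lane 1, whereas 9,10-PQ replicate 1 was in lane 2 and replicates 2 and 3 in lane 3. With lane as a factor the direction turned: 5 members were higher and 45 lower, against 2.31% and 5.63% of all genes, with a median of -0.11. The lane term rests on 7,12-B[a]AQ replicate 3 alone, the one library of another group outside lane 1, so no direction of the members with 9,10-PQ can be taken from this contrast. For il6st the controls read 397, 365 and 401 and the 9,10-PQ libraries 811, 624 and 773, which do not overlap (0.92 ± 0.10 SE, limma adjusted p = 3.35e-05), and with lane as a factor the difference was 0.82 ± 0.15 (adjusted p = 0.00124). For lifra the controls read 253, 227 and 253 and the 9,10-PQ libraries 396, 332 and 396 (0.61 ± 0.11, adjusted p = 0.00329), which with lane as a factor was 0.25 ± 0.17 and did not pass (adjusted p = 0.507). With 7,12-B[a]AQ 11 were higher and 3 lower (background 4.00% and 4.72%), and with BEZO, which had 2 libraries, 2 were higher and 5 lower (1.91% and 2.03%). Within lane 1, a setting chosen after seeing the data, 9 were higher and 8 lower with 7,12-B[a]AQ and 13 higher and 10 lower with BEZO (4.88% and 5.18%, and 4.89% and 5.35%, of all genes). The count of 52 members changed in at least 1 treatment, against 15.4% of all genes, was 23, 26 and 29 without control replicates 1, 2 and 3 and 32 without replicate 1 of each treatment. It was 123 with each deposited entry taken as a replicate of its own. Entries of 1 library are repeat reads of it, so that fit understates the spread between samples. The share of all genes in it was not counted, so the 123 is no stronger result about the members.

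In 16PAH, whose deviations about the group means chose the members, the differences between groups are given without a test. The median difference of the members from their control group was -0.74 for DBahP, -0.70 for BbF and -0.63 for Acenaphthene, and all 200 members were below control in each of the 3. The medians of all genes were -0.01, -0.003 and -0.03 in the same order. The index of the 4 DBahP libraries was 6.83 to 7.58 (mean 7.18 ± 0.31 SD), below all 3 DMSO_A libraries (8.19 to 8.41). The 3 BbF libraries ran from 6.44 to 7.91. In Acenaphthene the index was 5.95 in replicate 4 and at most 8.09 in the others, so its group value rests on that 1 library. The other 13 treatments had medians between -0.25 (1,5-DMN) and 0.01 (Fluoranthene), and DMSO_A differed from DMSO_B by -0.09.

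Most members were long genes, a property that the rule did not use. The span from the first to the last base of the gene in the RefSeq table (assembly GRCz12tu, used here for length only) had a median of 88.6 kb for the 195 members with an entry, with quartiles of 51.6 and 135 kb, and 19.4 kb for 20411 of all genes. For the 200 genes with the lowest r the median was 9.30 kb. When all genes were divided into 5 groups of nearly equal size by span, 135 of these 195 members were in the longest group (58.3 kb and above) and 1 in the shortest. Over all genes, 42.7% of the longest group and 1.96% of the shortest had a positive slope on the index in FRC, and 3.82% and 19.5% a negative one. The median slope went from -0.15 in the shortest group over -0.10, -0.04 and 0.04 to 0.17 in the longest in FRC, and from -0.10 to 0.04 in TCDD, so the order held over all 5 groups and was not a matter of the 200 genes alone. The shortest spans among members were those of LOC103908739 at 2.79 kb and mex3a at 8.37 kb. The members had a median of 347 normalized reads per library, not divided by length, where all genes had 126, and they were spread over 25 chromosomes.

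**Figure D5:**
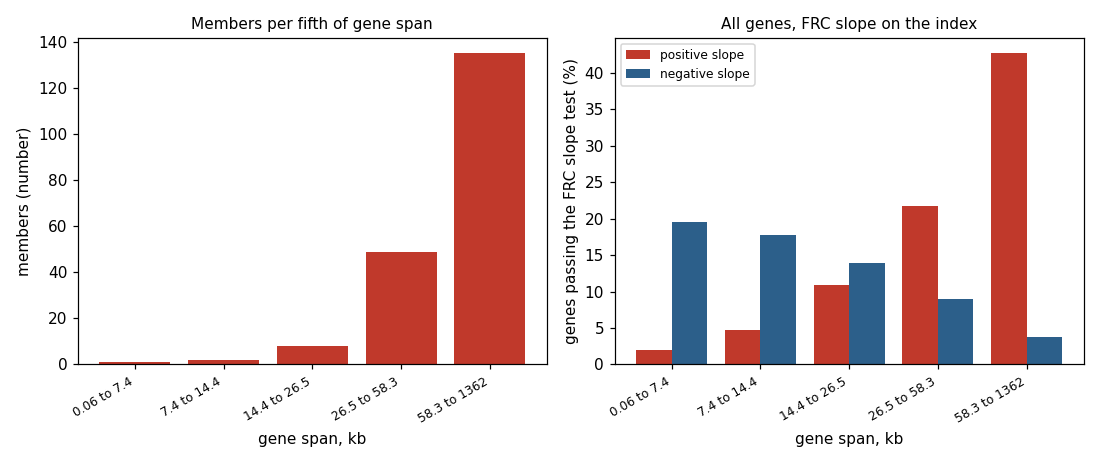
Left, number of members in each of 5 groups of all genes by span (x axis, kb); right, percent of all genes in each group whose slope on the index passed the limma test in FRC, red for positive and blue for negative. The longest group holds 135 members and 42.7% positive slopes, the shortest 1 member and 1.96%.

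The genes at the opposite end of the list were mostly short and widely expressed. The lowest r belonged to arpc1a (-0.82), a subunit of the complex that branches actin, ctnnb1 (-0.77), which encodes beta-catenin, ywhabb (-0.75), a 14-3-3 protein gene, GeneID 100331639, cops2, capn2l, flot1b, dcaf7, and cyc1 and cox4i1 of the respiratory chain. In FRC 95 of the 200 genes with the lowest r had a negative and 0 a positive slope past the limma threshold, with a median of -0.22. In TCDD 10 were negative and 0 positive, with a median of -0.12. For arpc1a the slope was -0.26 ± 0.06 SE in FRC (adjusted p = 0.00187) and -0.15 ± 0.05 in TCDD (adjusted p = 0.0706).

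No marker gene of a cell type was a member. With 200 members among 21847 genes, a list of 46 genes would hold few or none by that share alone. Of 46 markers of 13 cell types found in the table, 3 had a positive and 7 a negative slope in FRC by limma, and 0 were at 0 in all FRC libraries. None of the 5 neuronal markers had a slope past the threshold, and their summed normalized level was 33450 to 36625 in the FRC controls and 14947 to 43174 (median 34618) in the exposed libraries, so the controls lay within the exposed range. The 4 pigment cell markers gave 3 negative slopes, with sums of 8083 to 12238 in controls and 4526 to 12199 (median 6979) in exposed libraries. Endothelial and macrophage markers gave 1 positive slope each. The library with the lowest index in 16PAH, Acenaphthene replicate 4, had the highest summed level of muscle (220170), blood (17881), lens (10496) and liver (64717) markers and the lowest of neuron (29169), endothelium (1172) and macrophage (461) markers among the 70 libraries, and the part of this in its index was not tested.

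Other library features moved with the index only in part. The share of reads on ribosomal protein genes was 5.91% in Acenaphthene replicate 4, the highest of the 70 16PAH libraries (3.08% to 5.91%, median 3.67%), and 3.91% to 5.14% in the next 4 lowest libraries of the index. Total reads of the 5 lowest libraries, 18591044 to 21678920, lay within the range of the study (14165657 to 27210829), as did the share of reads on the mitochondrial genome (2.81% to 3.35% in a range of 1.89% to 3.81%). In FRC the ribosomal protein share of the 4 controls was 2.22% to 2.57% and that of the exposed libraries 1.38% to 14.1% (median 2.31%), and the mitochondrial share was 2.69% to 3.23% against 1.78% to 3.80%, so the controls lay within the exposed range for both features. The 5 FRC libraries lowest against their condition mean had ribosomal protein shares of 2.37% to 4.56% (median 3.16%), above the study median of 2.31%, as the 5 lowest of 16PAH were above theirs. High shares were also found at the other end. TBBPA replicate 2, with 14.1%, had the highest index deviation of FRC (0.92). The members, however, drew only 0.536% of its reads, against 0.675% in TBBPA replicate 1. The index gave the opposite order, 8.26 in replicate 2 and 7.91 in replicate 1. The high normalized level of TBBPA replicate 2 was thus not matched by its share of reads. DBahP replicate 2, with 5.67%, the second highest share of 16PAH, stood 0.40 above its condition mean. The part of these features in the members' levels was not tested.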

How the data were processed

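Whole-embryo RNA was sequenced by the studies, aligned to GRCz11 and counted per gene; the submitters' processing notes name STAR, HTSeq and DESeq2, without versions. The authors deposited 1 table of variance-stabilized log2 values for 170 entries. Since all 3715180 values inverted to whole reads (within 0.05), normalized values and reads were recovered from it, the entries of 1 lane and index (31 pairs differing by sampling noise only) were summed to 1 library, and analyses used log2(normalized value + 1). The design had named an average of such entries; reads were summed instead.

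Slopes were fitted per study by limma 3.58.1 (R 4.3.3, trend) on the index with condition as a factor, and treatments against their own DMSO group, with Benjamini-Hochberg adjustment over all genes. Tables were made with Python 3.11.15, numpy 2.4.6, pandas 2.3.3 and scipy 1.17.1 and plots with matplotlib 3.10.9. On simulated counts with 200 changed genes among 21854, 199 were recovered for the FRC slope (3 unchanged genes called) and 200 for TBBPA (17 called). Genes were drawn independently, with less spread of the index and larger TBBPA differences than the members had in the real data. The recovery checks the code only and does not measure the power for the real differences. The index genes were left out of slope counts. Depth ranged from 6795594 to 28566824 reads.

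The members, index and lists were chosen with earlier results of these data known, so the choice itself is no evidence. Genes named are the 7 index genes, the 15 members of highest r, those next to the limit, the 5 largest and 3 smallest slopes per study, the 10 largest FRC differences, members of the gene lists and the 5 of highest level; mgat4c, il6st, pcbp3 and the non-member genes were named after their values were seen. The 5 of highest level were ryr3, plecb, plxna2, ptprsa and slit1a. Lists were matched by symbol or by the start of the symbol. Of 57 cell type markers listed, 46 were in the table. Further lists, without members, were cadherins (57 genes, 19 positive and 0 negative FRC slopes, median slope 0.15), collagens (58, 18 and 6), histone methylation (44, 7 and 7) and immediate early genes (14, 0 and 2). Alternatives were the deposited scale, a pseudocount of 8, a minimum mean of 10, upper-quartile rescaling, lane, replicate block, index choice, separate entries and leaving out libraries. Promoter sequences were not analysed here. A few genes and 1 list that the naming rule takes are not reported here. Same-numbered replicates were checked for pairing: the correlation of their deviations had a median of 0.02 (-0.56 to 0.50, 210 pairs) in FRC and -0.06 (-0.54 to 0.18, 4 pairs) in TCDD, so the numbers were not used as pairs.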

Additional observations from a re-analysis of the deposited data

Results flagged for a closer look

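Among the 12 groups of 4 libraries outside 16PAH, whose own deviations chose the members, 1 had a library whose mean member level lay far from the other 3; chance gives about 1 such group in 20. In TCEP of FRC it was 6.97 in replicate 2, and 8.80 to 8.92 in the others. With replicate 2 of every FRC treatment left out, 187 members rose in at least 5 treatments. The matching share of all genes was not counted.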

How the results depend on the processing

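The number of the 200 members that stayed among the 200 was 139 to 200 over 13 alternatives of the rule, with 150 under Spearman correlation. Slope counts in FRC (198 to 200) and TCDD (179 to 199) stayed within these ranges under all alternatives run. Leaving out single libraries gave 0 to 61 in PE50_AK and 0 to 107 in PE50_BG. Upper-quartile rescaling gave 0 in PE50_AK, and lane as a factor gave 0 in PE50_BG; in PE50_AK lane could not be fitted, since it coincides with condition. Leaving out replicates gave 35 to 187 members higher and 0 to 0 lower in FRC treatments, 79 to 152 changed in PE50_AK, 23 to 68 in PE50_BG and 0 to 6 in TCDD. With the index as a covariate 0 were higher and 35 lower in FRC, against 0.677% and 1.94% of all genes. In TCDD 5 of the 200 members changed in that fit, where 1038 of all 21854 genes did. With separate entries, which are repeat reads of the same libraries and not replicates, 123 changed in PE50_BG. Within lane 1, where 9,10-PQ has no library, 31 changed. Matching shares of all genes were not counted for left-out replicates, separate entries or lane 1. Those counts are therefore no result about the members. With the replicate number as a block, FRC had 200 positive slopes, 124 members higher and 0 lower, and TCDD 195 positive slopes and 0 changed; the block changed no other call by over 1.5 times, and the numbers do not pair the samples.

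For named genes, slopes turned negative in PE50_BG with lane as a factor for nav1b (-0.0076), ece2b (-0.14), zgc:158659 (-0.20), si:dkeyp-77h1.4 (-0.65), plxna2 (-0.15), per3 (-0.0057), clocka (-1.28), slc8a4a (-0.83), igf1rb (-0.66). Leaving out single libraries turned them negative only without 7,12-B[a]AQ replicate 3, with ranges as follows: ece2b (-0.28 to 1.61), si:dkeyp-77h1.4 (-0.41 to 1.36), plxna2 (-0.50 to 1.46), clocka (-1.38 to 1.13), slc8a4a (-0.94 to 1.23), igf1rb (-1.05 to 2.13). The cause was not tested. Depth limits only the thinly covered members, and 4 control libraries limit every FRC treatment comparison.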
